A study of Mus musculus with 8 samples.

Results

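The genes described here are 10 genes of fatty acid and lipid handling that are often read as signs of adipocytes: Fabp4, Fabp5, Pparg, Lpl, Plin1, Adipoq, Cd36, Lipe, Angptl4 and Apoe. They were taken by symbol from a table of 27133 genes, and all 10 were present and had enough counts to be tested. The starting point was Fabp4, which had been seen to be higher with anti-CSF1R in these same libraries, so the set was chosen by the CPM and fold change of Fabp4, which are given as a description with no test. The other 9 were proposed with results of these libraries in view. The question was whether adipocyte-specific genes, or the genes with which endothelium takes up fatty acids, were higher together with Fabp4.

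The tissue was parietal bone, a flat bone that roofs the skull, of C57BL6J mouse pups. The 4 isotype libraries (numbered 2, 3, 4 and 5 in their titles) came from pups given a control antibody across the skull on postnatal days 2, 4 and 6. The 4 anti-CSF1R libraries (numbered 7, 8, 9 and 10) came from pups that received a CSF1R-blocking antibody against the receptor through which CSF1 and IL-34 maintain monocytes, macrophages and osteoclasts, on the same days. Pups of both groups were perfused and the bone was taken on postnatal day 9. No transgene or mutant allele was named for either group. Whether each library is 1 pup is not stated in the labels, so a p-value here measures the spread among libraries, which may be technical.

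Fatty acids reach a tissue as triglyceride in lipoproteins or bound to albumin. Lipoprotein lipase on the capillary wall frees them, ANGPTL4 inhibits that enzyme, CD36 takes fatty acids up at the cell surface, and fatty acid binding proteins carry them in the cytosol of adipocytes, capillary endothelium and macrophages. PPARγ is the transcription factor of adipocyte differentiation and also acts in endothelium and in osteoclast precursors. Perilipin 1 coats the lipid droplet of adipocytes, hormone-sensitive lipase breaks down the stored fat, and adiponectin is a hormone that adipocytes secrete. Apolipoprotein E is a lipoprotein component made in quantity by tissue macrophages. Of the 10, adiponectin and perilipin 1 are the most specific to adipocytes.

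The libraries held 57.5 M to 69.1 M counts. The detection floor was set at 3 counts, worth 0.0396 to 0.0573 CPM (counts divided by library size in M, with sizes scaled by TMM, a trimmed mean of gene ratios between libraries). This floor allows for counting error only, and for less of it if both mates of a read pair were counted. Isotype 3 and 4 stood apart: GC-rich transcripts were over-represented in them (across genes, GC content had a Spearman correlation of 0.669 and 0.656 with the deviation from the median library, against -0.381 to -0.032 elsewhere). The members are therefore given on all 8 libraries, with isotype 2 and 5 only, and after a GC and length offset, and other genes with the alternatives that moved them most. The offset removes from each library the trend of its counts with transcript GC content and length. Csf1r stood at 238 to 549 CPM with isotype and 39.4 to 64.4 CPM with anti-CSF1R, so the labels and the antibody's target went together. On all 8 libraries edgeR called 4 genes higher, 0.0235% of the 17028 tested, and 140 lower, 0.822% (adjusted p under 0.05), 0.846% in all, and 17.9% had an unadjusted p under 0.05 (19.6% with DESeq2 and 20.4% with limma-voom). The shares were 0.679% higher and 2.38% lower with isotype 2 and 5 only (3.06% in all), 0.558% and 2.32% with the offset (2.88%), and 0.992% and 2.49% with both (3.48%).

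Fabp4 was higher and Apoe lower with anti-CSF1R, and Plin1 and Adipoq, the members most specific to adipocytes, had the lowest levels of the 10. In isotype 2 to 5, Fabp4 stood at 60.8, 53.1, 56.7 and 63.2 CPM, and in anti-CSF1R 7 to 10 it stood at 98.7, 103.8, 102.5 and 107.1 CPM. Every anti-CSF1R library was above every isotype library, and the spread within each group was small (58.4 ± 4.46 and 103.0 ± 3.49 CPM, mean ± SD, n = 4, as for all such values below). The ratio of the means was 1.76 and the log2 fold change, anti-CSF1R minus isotype, 0.82 ± 0.12 (SE). It was 0.73 ± 0.06 with isotype 2 and 5 only, which had 62.0 CPM on average against 54.9 CPM in isotype 3 and 4. With the GC and length offset on all 8 libraries it was 0.34 ± 0.21, and the call that had chosen the gene was lost. With isotype 2 and 5 only and the offset together it was 0.75 ± 0.07. That call was also lost without isotype 4, without any 1 of the anti-CSF1R libraries and with a skeletal muscle covariate. The transcript of Fabp4 is poor in GC (40.3%), and isotype 3 and 4, where such transcripts were under-represented, gave its 2 lowest values. In bulk tissue, more cells that carry a transcript and more of it per cell cannot be told apart, for Fabp4 or any gene below.

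**Figure D1:**
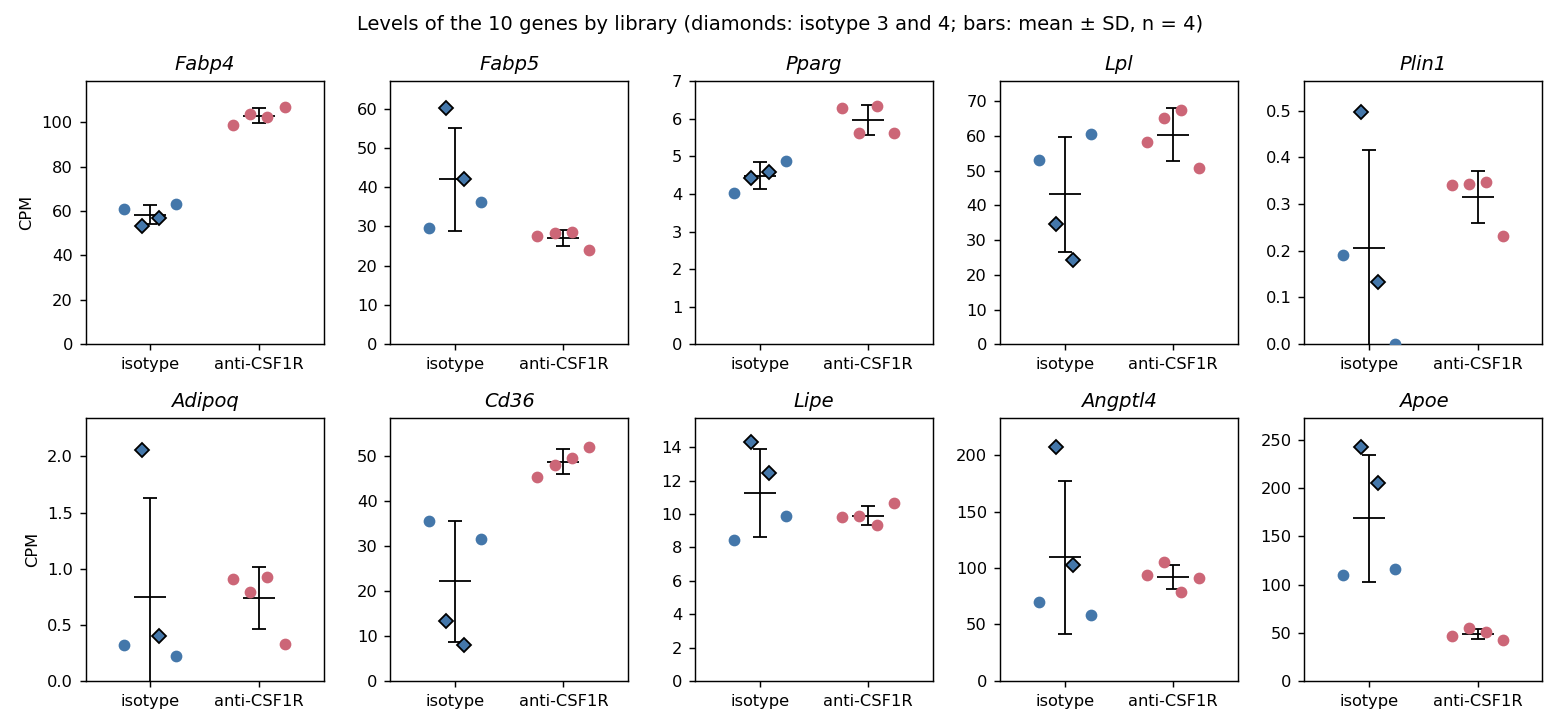
Level of each of the 10 genes in each library, in CPM on a linear axis from 0, isotype in blue and anti-CSF1R in red, with isotype 3 and 4 as diamonds and the mean ± SD of 4 libraries as bars (cut at 0 where they would reach below it). The groups do not overlap for Pparg, Cd36 and Fabp4, whose values chose the set (higher with anti-CSF1R, against 6.61% of all genes tested). Nor do they for Fabp5 and Apoe (lower, against 8.34%). Isotype 3 holds the highest value of Adipoq, Plin1, Lipe, Angptl4, Apoe and Fabp5.

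Fabp5, the fatty acid binding protein of epidermis and of many other cells including macrophages, went the other way. It stood at 29.5, 60.3, 42.0 and 36.1 CPM with isotype and at 27.6, 28.2, 28.5 and 24.0 CPM with anti-CSF1R. The groups did not overlap, but isotype 2 lay just above the highest anti-CSF1R library, and the difference did not pass the test (log2 fold change -0.63 ± 0.22, edgeR adjusted p = 0.263). It was -0.28 with isotype 2 and 5 only, -0.80 with the offset and -0.21 with both (edgeR adjusted p = 0.196, 0.132 and 0.333). Keratinocyte markers, whose cells carry Fabp5, summed to 5.11 to 7.01 CPM with isotype and 5.24 to 6.44 CPM with anti-CSF1R over 8 genes. Of these Krt15 and Dsg3 were at 0, 4 were tested and 0 were called, against 0.846% of all genes. Per kilobase of transcript, Fabp4 over Fabp5 was 0.970 to 2.27 in the isotype libraries and 3.94 to 4.92 in the anti-CSF1R libraries. This ratio is given as a description, since the values of Fabp4 chose the set.

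Both genes lie in a cluster of fatty acid binding protein genes in the RefSeq annotation (Fabp5, Pmp2, Fabp9, Fabp4 and Fabp12, in that order). The other 3 of the cluster were at or near 0, with at most 10 counts in any library. Fabp1, Fabp2 and Fabp6, the liver, intestinal and ileal forms, had no count in any library, so each was below the floor of 3 counts. Of the 8 other fatty acid binding protein genes, 2 could be tested and 0 were called, against 0.846% of all genes. Fabp3, the heart and muscle form, stood at 12.7 ± 6.05 and 7.91 ± 0.98 CPM (log2 fold change -0.68 ± 0.31, edgeR adjusted p = 0.278) and was at 0.00 without isotype 3 and 4 and at -0.17 after the offset. The skeletal muscle list of 12 genes, whose summed level was 8.61 to 74.7 CPM with isotype and 8.25 to 9.56 CPM with anti-CSF1R, was highest in isotype 3, as was Fabp3. Its part in these values was not tested. Fabp7, the brain and glial form, stood at 0.840 to 3.67 CPM with isotype and 3.63 to 5.84 CPM with anti-CSF1R, and the log2 fold change of 1.11 ± 0.47 did not pass (edgeR adjusted p = 0.278). That of Fabp7 was 0.45 without isotype 3 and 4 and 0.97 with the offset. It is named because it was the only other form tested. Schwann cell markers, 5 genes with 0 called (against 0.846% of all genes), summed to 25.7 to 38.8 CPM with isotype and 23.1 to 32.4 CPM with anti-CSF1R.

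Among genes of fatty acid delivery and uptake, Cd36 was higher with anti-CSF1R but its size and call rested on the isotype libraries used. Isotype 2 to 5 had 35.6, 13.4, 7.96 and 31.5 CPM of Cd36, and anti-CSF1R 7 to 10 had 45.2, 47.9, 49.5 and 51.9 CPM. Isotype 3 and 4 were far below isotype 2 and 5. The groups did not overlap, as isotype 2, the highest isotype library, was below every anti-CSF1R library. On all 8 libraries the log2 fold change was 1.14 ± 0.42 (edgeR adjusted p = 0.277). It was smaller and passed the test with isotype 2 and 5 only, at 0.53 ± 0.08 (edgeR adjusted p = 0.00539). It was 0.66 ± 0.15 with the offset, short of the threshold (edgeR adjusted p = 0.0509), and 0.47 ± 0.10 with both (edgeR adjusted p = 0.0367), in a range of adjusted p from 0.00539 to 0.999 across the 20 alternatives (edgeR, DESeq2 or limma). At 38.4% its transcript is the poorest in GC of the 10. The promoter of Cd36 is shown because it was 1 of the 2 members beside Fabp4 and Apoe that passed in any setting and the only 1 of these with a promoter in the RefSeq table (GRCm38.p6). The 250 bases before its start, 5′ to 3′ on the minus strand of chr5:17835897-17836146, follow, with motif matches on either strand in capitals.
Cd36: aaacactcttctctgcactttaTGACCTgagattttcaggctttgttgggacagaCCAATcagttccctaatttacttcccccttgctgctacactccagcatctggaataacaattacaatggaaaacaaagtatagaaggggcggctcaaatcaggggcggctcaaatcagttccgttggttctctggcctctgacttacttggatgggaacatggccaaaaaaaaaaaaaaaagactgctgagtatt
The motifs found were the CCAAT box, 195 bases upstream of the start, and, on the other strand 228 bases upstream, AGGTCA, which nuclear receptors such as PPARγ with RXR bind. Of 32851 RefSeq promoter windows of this length, 33.8% held CCAAT and 14% held AGGTCA. The third motif searched on both strands, GAGGAA, was not in this window.

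Lpl, lipoprotein lipase, stood at 53.2, 34.6, 24.3 and 60.6 CPM with isotype and at 58.1, 65.2, 67.6 and 50.7 CPM with anti-CSF1R. The groups overlapped, and isotype 3 and 4 were again the lowest. The log2 fold change was 0.48 ± 0.27 (edgeR adjusted p = 0.301) on all 8 libraries and 0.08 (edgeR adjusted p = 0.810) with isotype 2 and 5 only. It was 0.05 with the offset and 0.11 with both. Angptl4, a PPAR target whose product inhibits lipoprotein lipase, stood at 70.1, 207.6, 102.4 and 58.7 CPM with isotype and at 93.8, 105.1, 79.0 and 91.6 CPM with anti-CSF1R. Isotype 3 was far above every other library. The direction turned with the libraries used: -0.25 ± 0.36 (edgeR adjusted p = 0.624) on all 8, 0.52 ± 0.12 (edgeR adjusted p = 0.0582) with isotype 2 and 5 only, and 0.56 ± 0.12 (edgeR adjusted p = 0.0283) with those and the offset. It passed in 1 of 20 alternatives, with adjusted p from 0.0283 to 0.999 with edgeR, DESeq2 or limma.

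Pparg stood at 4.02, 4.43, 4.59 and 4.89 CPM with isotype and at 6.29, 5.62, 6.35 and 5.61 CPM with anti-CSF1R. The groups did not overlap, and isotype 3 and 4 lay between isotype 2 and 5. The log2 fold change was 0.41 ± 0.15 (edgeR adjusted p = 0.277) on all 8 libraries and differed little between settings, at 0.42, 0.50 and 0.45 with isotype 2 and 5 only, with the offset and with both (edgeR adjusted p = 0.168, 0.0728 and 0.121). It passed in 0 of 20 alternative analyses, in which the log2 fold change was 0.33 to 0.57. Of 16 other transcription factors of adipogenesis, such as Cebpa, Ebf1 and Ppard, all were tested and 0 were called, against 0.846% of all genes. At an unadjusted edgeR p under 0.05 there were 3, 1 higher and 2 lower, against 17.9% of all genes. DESeq2 had 5, 2 higher and 3 lower, and limma-voom 4, 2 higher and 2 lower, against 19.6% and 20.4%. With isotype 2 and 5 only there were 4, 3 higher and 1 lower, against 15.1%. The median log2 fold change of the 16 was -0.18, against 0.03 over all genes. It was 0.14 with isotype 2 and 5 only, where 11 of 16 were above 0, and 0.01 with the offset. Rxra, the partner of PPARγ with the highest level of that list, stood at 112.9 ± 29.2 and 96.8 ± 3.88 CPM (log2 fold change -0.22 ± 0.19, edgeR adjusted p = 0.406, against 0.11 without isotype 3 and 4).

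**Figure D2:**
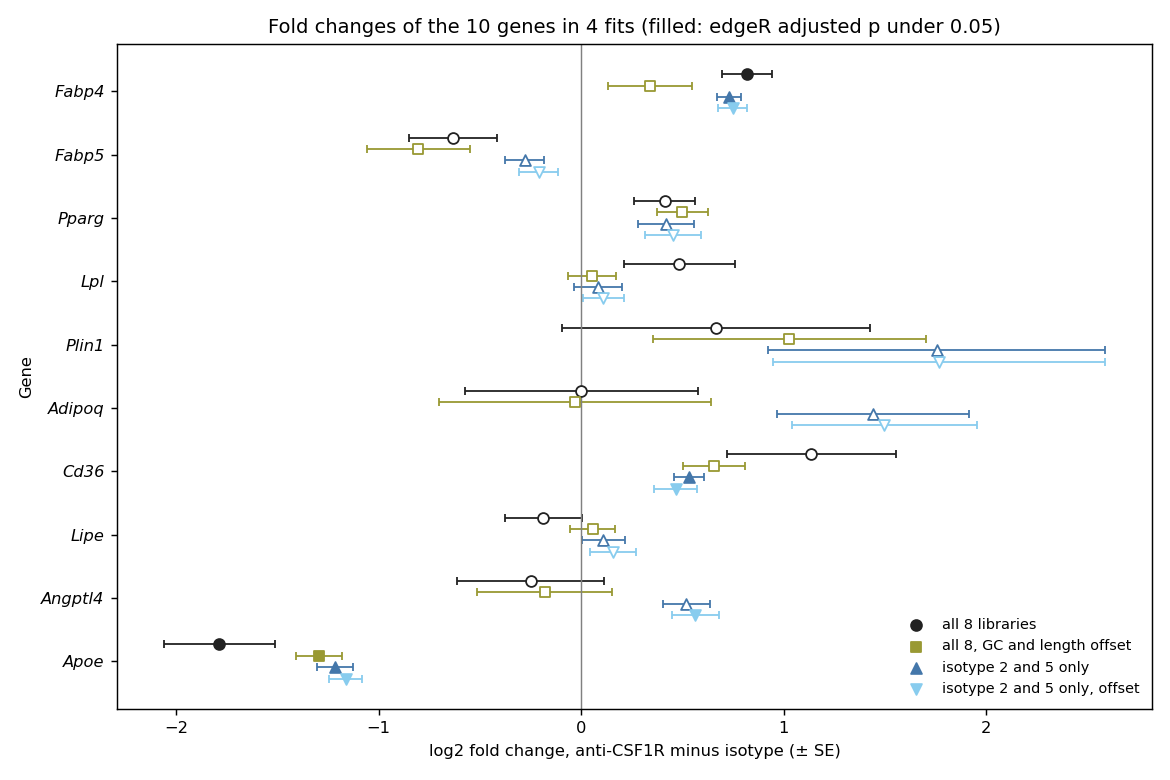
Log2 fold change (anti-CSF1R minus isotype) ± SE of each of the 10 genes in 4 fits: all 8 libraries, all 8 with the GC and length offset, isotype 2 and 5 only, and those with the offset; filled symbols have an edgeR adjusted p under 0.05. Apoe lies below 0 and is filled in all 4, Fabp4, whose symbols repeat the contrast that chose it, is filled in 3, Cd36 in 2 and Angptl4 in 1, and Angptl4, Lipe and Adipoq change side.

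The genes most specific to adipocytes had low levels. Plin1 had 0 to 26 counts per library: 0.192, 0.496, 0.132 and 0.00 CPM in the isotype and 0.340, 0.343, 0.346 and 0.231 CPM in the anti-CSF1R libraries. Its values overlapped, and the log2 fold change of 0.67 ± 0.76 had an edgeR adjusted p of 0.529. Adipoq had 16 to 108 counts: 0.319, 2.06, 0.396 and 0.226 CPM in the isotype and 0.907, 0.792, 0.923 and 0.330 CPM in the anti-CSF1R libraries. Isotype 3 alone was above all anti-CSF1R libraries, and the means were 0.751 ± 0.877 and 0.738 ± 0.278 CPM (log2 fold change 0.00 ± 0.57, edgeR adjusted p = 1.00). The log2 fold changes with isotype 2 and 5 only were 1.76 for Plin1 and 1.44 for Adipoq (edgeR adjusted p = 0.368 and 0.163), from 0 to 20 counts in those isotype libraries. Neither difference passed the test. Lipe, which steroid-producing cells and muscle also express, stood at 8.43, 14.3, 12.5 and 9.88 CPM with isotype and at 9.79, 9.88, 9.32 and 10.6 CPM with anti-CSF1R. The anti-CSF1R values lay inside the isotype range (log2 fold change -0.19 ± 0.19, edgeR adjusted p = 0.481, against 0.11 without isotype 3 and 4).

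The promoter of Adipoq is shown as that of the most adipocyte-specific member with a usable count. The 250 bases before its start, on the plus strand of chr16:23146286-23146535 (RefSeq, GRCm38.p6), hold CCAAT 3 times, in capitals, on the minus strand 34 and 27 bases and on the plus strand 7 bases upstream of the start. The nuclear receptor and PU.1 motifs searched were not in it.
Adipoq: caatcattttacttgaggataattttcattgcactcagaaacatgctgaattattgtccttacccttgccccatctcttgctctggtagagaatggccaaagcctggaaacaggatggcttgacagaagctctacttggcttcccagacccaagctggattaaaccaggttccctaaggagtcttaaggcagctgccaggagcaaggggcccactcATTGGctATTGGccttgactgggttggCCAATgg

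A list of 15 other adipocyte genes had low levels for the most part. Of the 15, 10 were under 1 CPM in every library, among them Lep (leptin), Cfd (adipsin), Retn (resistin), Cidec and Adrb3, each with at most 8 counts in any library. The summed level of the list was 9.40 to 17.8 CPM with isotype and 10.2 to 12.4 CPM with anti-CSF1R, highest in isotype 3. Of the 7 that edgeR could test, 0 were called, as were 0 by DESeq2 and limma-voom, against 0.846% of all genes called by edgeR. With so few genes called, 0 of 7 does not set this list apart. At an unadjusted edgeR p under 0.05 there were 2, both lower, against 17.9% of all genes. DESeq2 had 2, both lower, and limma-voom 1, higher, against 19.6% and 20.4%. The median log2 fold change was -0.19 on all 8 libraries and 0.34 with isotype 2 and 5 only, where 8 were tested, 5 were above 0 and 0 were called. In that fit 2 of the 8 had an unadjusted edgeR p under 0.05, both higher, against 15.1% of all genes. With the offset added there were also 2, both higher, against 15.2%, and with the offset on all 8 libraries 0, against 23.8%. Trarg1 and Slc2a4, the regulator of glucose transporter traffic and the insulin-responsive transporter GLUT4 itself, had the highest levels. Trarg1 stood at 5.80 ± 2.03 and 5.07 ± 0.97 CPM (log2 fold change -0.19 ± 0.26, edgeR adjusted p = 0.596), and without isotype 3 and 4 the log2 fold change was 0.22. Slc2a4 stood at 2.59 ± 1.00 and 2.73 ± 0.79 CPM (log2 fold change 0.08 ± 0.32, edgeR adjusted p = 0.861), and its log2 fold change was 0.64 without isotype 3 and 4 and 0.40 with the offset, where it did not pass either. Muscle expresses Slc2a4 as well. Of 9 brown adipocyte genes, 4 were tested and 0 were called, against 0.846% of all genes. Of the 4, 0 had an unadjusted edgeR p under 0.05, against 17.9%. Ucp1, the uncoupling protein that defines brown fat, had at most 2 counts. Zic1, which cranial mesenchyme also expresses, had the highest level (56.4 ± 23.1 and 70.3 ± 3.90 CPM, log2 fold change 0.32 ± 0.26, edgeR adjusted p = 0.396, against -0.04 without isotype 3 and 4).

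Genes of endothelial fatty acid transport had 0 calls, a count near the share of all genes called. The list of 10 holds Gpihbp1, which carries lipoprotein lipase to the capillary lumen, Meox2 and Tcf15, transcription factors that drive fatty acid uptake in heart endothelium, the VEGF-B ligand and its receptors, and the transporters Slc27a3 and Slc27a4. All 10 were tested and 0 were called by edgeR, DESeq2 or limma-voom, against 0.846% of all genes called by edgeR. With so few genes called, 0 of 10 does not set this list apart. At an unadjusted edgeR p under 0.05 there were 3, 1 higher and 2 lower, and there were 4 with DESeq2 and 1 with limma-voom, against 17.9%, 19.6% and 20.4% of all genes. The median log2 fold change was 0.29 (range -0.65 to 0.62) on all 8 libraries, 0.17 with the offset and 0.02 with isotype 2 and 5 only, where 5 of 10 were above 0. In that last fit 2 had an unadjusted edgeR p under 0.05, both higher, against 15.1% of all genes. With the offset added there was 1, higher, against 15.2%, and with the offset on all 8 libraries 3, 2 higher and 1 lower, against 23.8%. Nrp1, a VEGF co-receptor, stood at 91.1, 48.2, 34.5 and 105.6 CPM with isotype and at 99.1, 106.6, 104.7 and 108.5 CPM with anti-CSF1R. Its low values were those of isotype 3 and 4, and the groups overlapped (log2 fold change 0.58 ± 0.32, edgeR adjusted p = 0.298, against 0.09 without isotype 3 and 4). Cav1, the caveolin of endothelial caveolae, stood at 103.6, 33.6, 37.1 and 92.6 CPM with isotype and at 97.3, 86.3, 86.6 and 98.9 CPM with anti-CSF1R, where the log2 fold change of 0.47 ± 0.36 did not pass (edgeR adjusted p = 0.371). Cav1 was at -0.09 with isotype 2 and 5 only. Gpihbp1 had log2 fold changes of -0.33 on all 8 libraries and 0.24 in that fit. Of this list, Flt1, a VEGF receptor, had a log2 fold change of 0.62 ± 0.22 on all 8 libraries (edgeR adjusted p = 0.275) and of 0.28 without isotype 3 and 4. Both genes were singled out after their values were seen.

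General endothelial markers lay mostly above 0 once isotype 3 and 4 were left out or the offset was used, with at most 2 called. Of 20 markers, 0 were called on all 8 libraries (3 with an unadjusted edgeR p under 0.05, all higher, DESeq2 4 and limma-voom 5, against 17.9%, 19.6% and 20.4% of all genes), 12 had a log2 fold change above 0, and the median was 0.19. In 7 of the 20, every anti-CSF1R library was above every isotype library, against 6.61% of all genes tested. With isotype 2 and 5 only 19 of 20 were above 0 and the median was 0.23. Vwf (von Willebrand factor) and Emcn (endomucin) were called higher, against 0.679% of all genes. In that fit 15 of the 20 had an unadjusted edgeR p under 0.05, all higher, against 15.1% of all genes. The 4 anti-CSF1R libraries were above both isotype libraries in 14 of the 20, against 11.3% of all genes. With the offset on all 8 libraries 20 of 20 were above 0 (median 0.30), 9 had an unadjusted edgeR p under 0.05, against 23.8% of all genes, and 0 were called. With both, Vwf and Egfl7 were called higher, against 0.992% of all genes, and Emcn missed the threshold (edgeR adjusted p = 0.0634). There, 17 of the 20 had an unadjusted edgeR p under 0.05, all higher, against 15.2% of all genes. The endothelial score, the mean log2 CPM of the 20, was 5.30 to 5.71 in the isotype libraries and 5.79 to 5.95 in the anti-CSF1R libraries. Log2 CPM of Fabp4 minus that score was 0.02 to 0.53 with isotype and 0.78 to 0.90 with anti-CSF1R, given as a description since the values of Fabp4 chose the set. The same difference for Cd36 was -2.30 to -0.42 with isotype and -0.35 to -0.16 with anti-CSF1R. The low isotype values were those of isotype 3 and 4 (-1.965 and -2.298). Isotype 2 and 5 were at -0.425 and -0.675, much nearer to the anti-CSF1R libraries. For Lpl the difference was -0.69 to 0.27 with isotype and -0.29 to 0.29 with anti-CSF1R, which overlapped. Marrow stromal genes, which mark the LEPR-positive cells that give rise to marrow adipocytes, were all 8 above 0 with 0 called (median 0.51, and 0.34 after the offset). Of the 8, 3 had an unadjusted edgeR p under 0.05, against 17.9% of all genes. DESeq2 gave 3 and limma-voom 7, against 19.6% and 20.4%. All of these were higher. Without isotype 3 and 4 the median was 0.23, and 2 of the 8, Cxcl12 and Pdgfrb, were called higher, against 0.679% of all genes. In that fit 5 of the 8 had an unadjusted edgeR p under 0.05, all higher, against 15.1%. Of 7 mural cell markers 0 were called on all 8 libraries (median 0.09), against 0.846% of all genes. Abcc9 and Notch3 were called higher with isotype 2 and 5 only, against 0.679% of all genes. The part of these cells in the levels of Fabp4 and Cd36 was not tested.

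**Figure D3:**
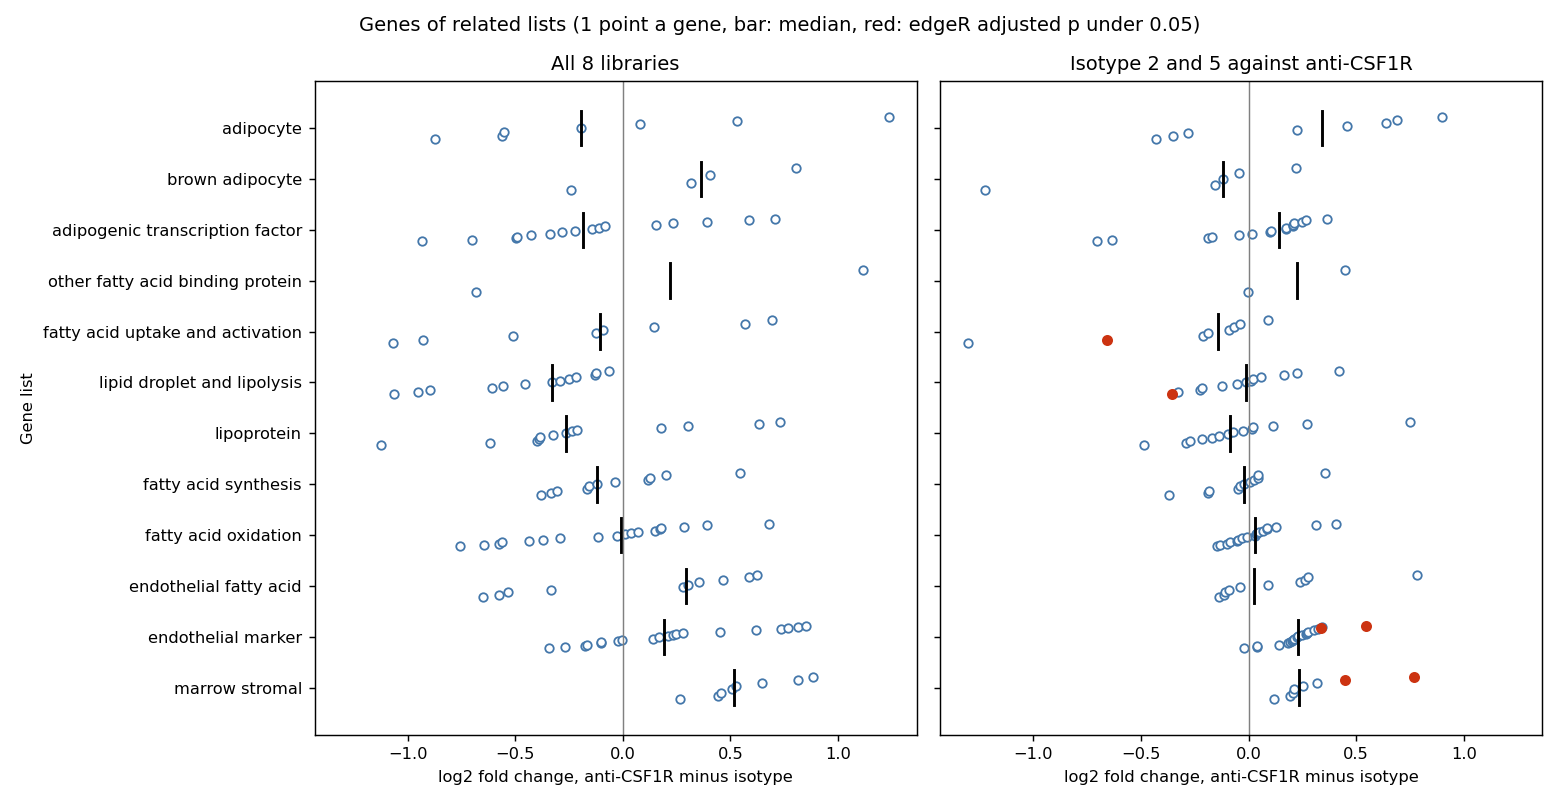
Log2 fold change (anti-CSF1R minus isotype) of each tested gene of the adipocyte, fatty acid, lipid, endothelial and marrow stromal lists on all 8 libraries (left) and with isotype 2 and 5 only (right), with a bar at the median of each list and red points where the edgeR adjusted p was under 0.05; height within a list only separates the points. No gene of these lists is red on the left, where 0.846% of all genes were called. On the right, where 3.06% of all genes were called, Slc27a1, Plin3, Vwf, Emcn, Cxcl12 and Pdgfrb are red.

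Apoe was the 1 other member that passed the test on all 8 libraries. Isotype 2 to 5 had 110.1, 242.9, 205.2 and 116.6 CPM, and anti-CSF1R 7 to 10 had 47.1, 54.7, 51.0 and 42.8 CPM. Every anti-CSF1R library was below every isotype library by a wide margin, and isotype 3 and 4 were the highest. The means were 168.7 ± 65.8 and 48.9 ± 5.13 CPM, 3.45-fold lower (log2 fold change -1.79 ± 0.27, edgeR adjusted p = 0.0267). Apoe fell by 1.21 on the log2 scale with isotype 2 and 5 only (edgeR adjusted p = 3.76e-04). It fell by 1.29 with the offset and by 1.16 with both (edgeR adjusted p = 8.46e-04 and 3.29e-05). Its call was lost without isotype 4 or any 1 of the anti-CSF1R libraries and with a skeletal muscle covariate, in a range of adjusted p from 1.58e-07 to 0.213 across the 20 alternatives (edgeR, DESeq2 or limma), and its log2 fold change stayed between -1.98 and -1.16. Macrophage markers moved with it for the most part: 9 of 12 were called lower, against 0.822% of all genes. In 10 of the 12 every anti-CSF1R library was below every isotype library, against 8.34% of all genes. Cd163 and Mertk were above 0, with a log2 fold change of 0.54 each (edgeR adjusted p = 0.299 and 0.295). The summed level of the 12 was 579 to 1013 CPM with isotype and 222 to 277 CPM with anti-CSF1R. Osteoclast markers did so too: all 10 were lower, and 7 of the 10 were called, against 0.822% of all genes. In all 10 every anti-CSF1R library was below every isotype library, against 8.34% of all genes. Their part in the level of Apoe was not tested.

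The promoter of Apoe is shown as that of the member that fell in these 4 fits. Its 5′-most start of 3 in the RefSeq table (GRCm38.p6) gives the window on the minus strand of chr7:19699189-19699438, with GAGGAA, the core of the motif of the myeloid factor PU.1, in capitals 250 bases upstream of the start.
Apoe: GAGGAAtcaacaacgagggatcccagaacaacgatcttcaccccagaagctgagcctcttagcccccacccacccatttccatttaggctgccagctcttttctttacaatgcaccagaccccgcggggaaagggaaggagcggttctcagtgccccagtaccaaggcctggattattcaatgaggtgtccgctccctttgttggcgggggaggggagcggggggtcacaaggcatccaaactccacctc
GAGGAA was in 23.3% of the 32851 windows. Of the 10 genes, 6 had a promoter in the table, and among these GAGGAA was also in those of Plin1 and Lipe, neither of which was called, and AGGTCA in those of Cd36 and Pparg.

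Of the other lipid lists, edgeR without the offset called 0 genes on all 8 libraries, against 0.846% of all genes. DESeq2 called Slc27a1 and Plin3 lower on the same libraries, among 603 genes lower of 22124 tested. All 13 tested genes of lipid droplets and lipolysis were below 0 on all 8 libraries (median log2 fold change -0.33), but 6 were above 0 with isotype 2 and 5 only (median -0.01). Among them Plin3, a droplet coat protein of many cell types, stood at 67.3 ± 28.0 and 34.8 ± 0.71 CPM (log2 fold change -0.95 ± 0.27, edgeR adjusted p = 0.186) and fell by 0.36 with isotype 2 and 5 only (edgeR adjusted p = 0.00859). Plin2, the droplet coat protein of macrophages and many other cells, stood at 33.9, 87.0, 55.1 and 30.8 CPM with isotype and at 28.5, 29.0, 27.0 and 26.6 CPM with anti-CSF1R, and did not pass (log2 fold change -0.89 ± 0.31, edgeR adjusted p = 0.265, and -0.22 without isotype 3 and 4). Mgll, which had the highest level of the list, was at -0.13 ± 0.20 (edgeR adjusted p = 0.647) and at 0.23 without isotype 3 and 4. Among 10 genes of uptake and activation, 8 were tested. The transporter Slc27a1 stood at 59.3, 107, 91.8 and 60.2 CPM with isotype and at 41.7, 37.7, 41.3 and 30.9 CPM with anti-CSF1R. The groups did not overlap. Slc27a1 missed the edgeR threshold on all 8 libraries without the offset (log2 fold change -1.07 ± 0.22, edgeR adjusted p = 0.0746). It fell by 0.66 with isotype 2 and 5 only and by 0.74 with the offset (edgeR adjusted p = 0.0167 and 0.00616). Slc27a1, Plin2 and Plin3 were singled out after their values were seen. Got2, a mitochondrial aminotransferase also known as a membrane fatty acid binding protein, was at -0.51 ± 0.23 (edgeR adjusted p = 0.278) and at -0.09 without isotype 3 and 4.

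Among 20 lipoprotein genes, 13 were tested, with a median of -0.26, and 14 with isotype 2 and 5 only, with a median of -0.09. Lrp1, a receptor that takes up ApoE-rich lipoproteins, had the highest level of that list (1026 ± 102 and 1161 ± 76.0 CPM, log2 fold change 0.18 ± 0.15, edgeR adjusted p = 0.396). The 11 genes of fatty acid synthesis and the 18 of oxidation were all tested, with medians of -0.12 and -0.01 on all 8 libraries and of -0.02 and 0.03 with isotype 2 and 5 only. Scd2, a desaturase, was at -0.17 ± 0.15 and Hadha, a subunit of the trifunctional protein of β-oxidation, at -0.29 ± 0.16 (edgeR adjusted p = 0.441 and 0.298), against -0.19 and -0.03 without isotype 3 and 4.

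The order of the 10 genes by level was compared as CPM per kilobase of the longest protein-coding transcript. With isotype the order was Apoe (119.8 ± 46.7), Fabp4 (65.2 ± 4.98), Fabp5 (42.5 ± 13.4), Angptl4 (33.2 ± 20.5), Lpl (10.5 ± 4.05), Cd36 (6.51 ± 3.97), Lipe (3.04 ± 0.71), Pparg (2.11 ± 0.17), Adipoq (0.581 ± 0.679) and Plin1 (0.0728 ± 0.0746). Among neighbours in that order, Apoe and Fabp4, Angptl4 and Lpl, and Pparg and Adipoq had ranges that did not overlap, and the other pairs overlapped. With anti-CSF1R Fabp4 was first, at 115 ± 3.89 CPM per kilobase, and Apoe second, at 34.7 ± 3.64 CPM per kilobase, with no overlap. Angptl4, Fabp5, Lpl and Cd36 followed, from 27.9 ± 3.24 down to 14.3 ± 0.82 CPM per kilobase. Adipoq and Plin1 were again last, at 0.571 ± 0.215 and 0.112 ± 0.0199 CPM per kilobase. Fabp4 over Apoe was 0.343 to 0.867 in the isotype libraries and 2.98 to 3.93 in the anti-CSF1R libraries. That ratio, too, is a description, since the values of Fabp4 chose the set.

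The calls among the 10 genes went in both directions. Beside Fabp4, 1 of the other 9 was called on all 8 libraries, Apoe, and it was lower, against 0.846% of all genes called. When isotype 2 and 5 only were used, 2 of the 9 were called, Apoe lower and Cd36 higher, against 3.06% of all genes. With those and the offset 3 were called, Apoe lower and Cd36 and Angptl4 higher, against 3.48% of all genes. The median log2 fold change of the 10 was 0.21 against 0.03 over all genes, and 0.47 against 0.00 with isotype 2 and 5 only. Both medians include Fabp4, whose rise chose the set, so they are a description and no result about the other 9. Every anti-CSF1R library lay above every isotype library in 3 of the 10, Fabp4 included, and below in 2, against 6.61% and 8.34% of all genes. With isotype 2 and 5 only 8 of the 10, Fabp4 included, had a log2 fold change above 0. The 4 anti-CSF1R libraries lay above both isotype libraries in 6, Fabp4 included, against 11.3% of all genes. They lay below both in 2, for which no share over all genes was computed.

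**Figure D4:**
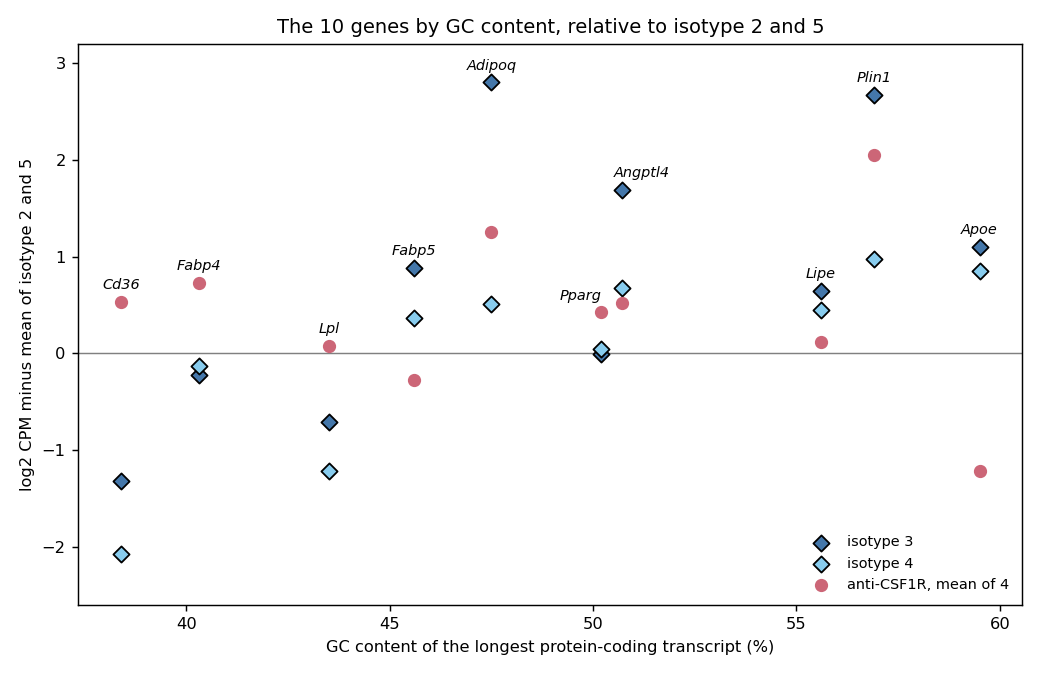
Level of each of the 10 genes in isotype 3, in isotype 4 and in the mean of the 4 anti-CSF1R libraries, as log2 CPM minus the mean of isotype 2 and 5, against the GC content of its longest protein-coding transcript. In isotype 3 and 4 the GC-poor Cd36, Fabp4 and Lpl lie below 0 and Fabp5, Adipoq, Angptl4 and the GC-rich Lipe, Plin1 and Apoe above it, and only Apoe and Fabp5 lie below 0 in the anti-CSF1R mean.

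In isotype 3 and 4 the GC-poor members were low and the GC-rich members high, with exceptions. Relative to the mean of isotype 2 and 5, isotype 3 was at -1.32 and isotype 4 at -2.07 on the log2 scale for Cd36 (38.4% GC), at -0.71 and -1.22 for Lpl (43.5%), and at 1.10 and 0.86 for Apoe (59.5%). Fabp4, at 40.3% GC, was at -0.22 and -0.13, a smaller shift than that of Cd36 or Lpl. Pparg, at 50.2% GC, was at 0.00 and 0.05. Fabp5 at 45.6%, Adipoq at 47.5% and Angptl4 at 50.7% stood outside this order, at 0.88, 2.80 and 1.69 in isotype 3. Isotype 3 also had the highest skeletal muscle level, 74.7 CPM in sum against 8.61 to 28.2 CPM in the other isotype libraries, and its part in these values was not tested.

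Of 10548 genes whose mean log2 CPM was 3 or more, those whose levels over the 8 libraries were most like those of Fabp4 were Dclk2, Fhl2, Vdr, Scube1 and Dpy19l3 (Pearson r 0.977, 0.960, 0.959, 0.957 and 0.956, Spearman rho 0.833, 0.857, 0.905, 0.786 and 1.00). These are descriptions over libraries that fall into 2 groups, which the choice of Fabp4 fixes. Vdr, the vitamin D receptor gene of bone-forming cells, stood at 677.9 ± 55.9 and 998.6 ± 94.1 CPM, and Fhl2, an LIM-domain protein, at 15.9 ± 1.40 and 24.3 ± 0.69 CPM. Scube1, a secreted and cell-surface protein, stood at 34.3 ± 1.95 and 51.8 ± 3.82 CPM, Dclk2, a doublecortin-like kinase, at 17.0 ± 0.39 and 19.0 ± 0.24 CPM, and Dpy19l3, a tryptophan mannosyltransferase, at 14.8 ± 1.43 and 19.0 ± 0.72 CPM. Of the members above that level, Cd36 had the next highest r with Fabp4, 0.813, and ranked 360 of the 10548. Lpl was at 0.669, Angptl4 at -0.227, Lipe at -0.463, Fabp5 at -0.819 and Apoe at -0.966.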

How the data were processed

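Poly(A) RNA of parietal bone was measured in 8 libraries (TruSeq Stranded mRNA, paired reads, per the labels' protocols). The authors deposited raw counts per gene symbol in 1 table of 27133 genes, 5009 without any count. The submitters' processing notes list STAR 2.7.10b, featureCounts 1.6.3 and the builds GRCm38 and GRCm39. The role of each, the annotation and the strand setting were not given in the sources used here, which leaves overlapping genes and close copies uncertain. Of counts from 1 to 10, 82.8% to 84.7% were even, as when both mates are counted, so the totals understate counting noise.

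From these counts, edgeR 4.0.16 (R 4.3.3) was run with filterByExpr (17028 genes kept), TMM, robust quasi-likelihood F-tests, two-sided, and Benjamini-Hochberg adjustment over all genes at 0.05. DESeq2 1.42.0 and limma-voom (limma 3.58.1) were alternatives. The GC and length offset was fitted with natural splines of 5 degrees of freedom on the longest protein-coding GENCODE M21 transcript, known for 94.0% of tested genes. Log2 CPM used a prior count of 2. Promoters came from RefSeq (GRCm38.p6). The script was tested on simulated data.

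The 10 members and all lists were chosen with earlier results of these data known. Named by rule were the members, Csf1r, in the adipocyte and endothelial fatty acid lists up to 3 called genes or else the 2 with the highest CPM, in each other pathway list the called gene with the smallest p or else the 1 with the highest CPM, in lists of other cell types the 1 with the highest CPM, and the 5 genes most like Fabp4. That gave 35 genes, of which the 7 named only for other cell types are not printed.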

Additional observations from a re-analysis of the deposited data

Results flagged for a closer look

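In 56 groups of 4 libraries (28 genes in each group), 4 had a highest or lowest library whose gap to its nearest neighbour took a larger share of the group's range than the 95% critical value of Dixon's test, and chance gives about 1 in 20. Adipoq stood at 2.062 CPM in isotype 3, against 0.2262 to 0.3963 CPM in the other isotype libraries. Plin1 stood at 0.2311 CPM in anti-CSF1R 10, against 0.34 to 0.3462 CPM in the other anti-CSF1R libraries. Csf1r stood at 39.4 CPM in anti-CSF1R 10, against 61.41 to 64.43 CPM. Rxra stood at 91.02 CPM in anti-CSF1R 8, against 98.21 to 99.3 CPM.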

How the results depend on the processing

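On all 8 libraries edgeR called 4 genes higher and 140 lower. Library size alone gave 8 and 90, counts halved 8 and 140, limma-voom 9 and 134, DESeq2 131 and 603, isotype 2 and 5 only 119 and 417, and the offset 95 and 395. Isotype 2 and 5 with the offset gave 174 and 437, and the offset on the longest transcript of any type 84 and 368; these 2 were chosen after seeing the data. With a skeletal muscle covariate edgeR called 0 and 0 genes, with 868 at an unadjusted p under 0.05. Leaving out 1 library gave 0 to 41 higher and 0 to 245 lower: 0 and 0 without anti-CSF1R 7 or 8 (1903 and 1597 at an unadjusted p under 0.05), 0 and 4 without 9, 0 and 14 without 10, 0 and 35 without isotype 4, 15 and 245 without isotype 2, and 41 and 193 without isotype 5.

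Of the 9 members other than Fabp4, 1 was called, against 0.846% of all genes tested. The count was 2 with isotype 2 and 5 only (3.06% of all genes) and 3 with those and the offset (3.48%). It was 0 with the muscle covariate (3 at an unadjusted p under 0.05, against 5.1% of all genes) and 0 to 1 leaving out 1 library. The log2 fold change of Fabp4, given with no test, was 0.25 to 0.97 over 20 alternatives; the lowest was with the offset on any transcript, which for Fabp4 is a retained intron. Cd36 passed in 2 of 20 (0.47 to 1.45). The adipocyte and the endothelial fatty acid lists had 0 genes called in every alternative run. The share of all genes called was 0.846% on all 8 libraries and 3.48% with isotype 2 and 5 and the offset.

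Some log2 fold changes that did not pass on all 8 libraries turned sign, and of the turned values only that of Angptl4 with isotype 2 and 5 and the offset passed. With isotype 2 and 5 only they were 0.11 for Lipe, 0.52 for Angptl4, 0.22 for Trarg1, -0.091 for Cav1, -0.045 for Zic1, 0.105 for Rxra and 0.225 for Mgll. With those and the offset they were 0.157 for Lipe, 0.565 for Angptl4, 0.275 for Trarg1, -0.072 for Cav1, -0.042 for Zic1, 0.117 for Rxra, 0.074 for Fabp3, 0.263 for Mgll and 0.01 for Hadha. With the offset they were -0.029 for Adipoq, 0.057 for Lipe, 0.057 for Trarg1, -0.093 for Zic1, 0.094 for Mgll and -0.002 for Dpy19l3, and on any transcript 0.076 for Lipe, 0.079 for Trarg1, -0.054 for Zic1 and 0.114 for Mgll. The muscle covariate gave 0.604 for Angptl4, 0.249 for Trarg1, -0.151 for Zic1, 0.073 for Rxra and 0.196 for Mgll. Library size alone gave 0.002 for Trarg1 and 0.063 for Mgll, and Adipoq was -0.058 with RLE factors and -0.077 with DESeq2. Leaving out 1 library, Adipoq ranged from -0.31 to 1.24, Angptl4 from -0.46 to 0.26, Trarg1 from -0.33 to 0.060, Slc2a4 from -0.13 to 0.32 and Mgll from -0.25 to 0.061. The cause of these changes was not tested. No paired analysis was possible because the groups share no replicate number. Plin1 and Adipoq rest on 0 to 108 counts per library, so counting error is largest for them among the 10 genes.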
